A study of Rattus norvegicus with 40 samples.

Results

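A set of 8 genes of cardiac muscle were followed in fetal rat lung: Nppa, Myh6, Tnnt2, Tnni3, Tnnc1, Myl7, Myl4 and Actc1. The members were the probe sets whose symbol in the platform annotation was one of these names, without regard to their values. Of the 8 genes, 7 had at least 1 probe set that named no other gene, among 14218 genes measured in this way over the series. Actc1 had none: its 5 probe sets also named the smooth muscle actin Acta2, so no level is assigned to Actc1 alone.

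In the series, whole lung and whole intestine were taken from Wistar rat embryos on day 16 (E16) or day 20 (E20) of gestation, and each of these 4 groups was measured on 10 Affymetrix arrays. No group carried a genetic change or a treatment. The labels describe frozen tissue of several siblings but do not settle whether an array holds RNA of 1 embryo or of a pool, so the p-values rest on the spread from array to array, part of which may be technical. Lung RNA was labelled from 2 µg and intestinal RNA from 1 µg, so tissue and labelled amount cannot be told apart. In whole tissue, fewer cells of a type and less RNA per cell cannot be told apart either. Markers of the labelled tissues were checked. The surfactant gene Sftpc was at 10.46 or more in every lung array and at 6.76 or less in every intestinal one. The lung marker Nkx2-1 was at 9.03 or more and 7.62 or less. The intestinal regulator Cdx2 was at 7.20 or more in intestine and at 6.88 or less in lung. The intestinal markers Cdx1 (6.59 to 7.34 in lung, 6.84 to 8.43 in intestine) and Vil1 (7.25 to 8.28, 8.10 to 13.53) overlapped between the tissues. Values are log2 of the deposited intensity. Array medians ran from 220 to 264 intensity units, and the median of all log2 values was 7.89. Levels are compared between arrays for 1 probe set at a time, never between genes.

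Cardiac muscle contracts when calcium binds troponin on the actin filament and lets myosin pull on it. Myh6 encodes the alpha heavy chain of cardiac myosin, while Myl7 and Myl4 encode the regulatory and essential light chains typical of atrial muscle. Tnnt2, Tnni3 and Tnnc1 encode the cardiac subunits of troponin that bind tropomyosin, inhibit contraction and bind calcium; Tnnc1 also serves slow skeletal muscle. Nppa encodes atrial natriuretic peptide, a hormone that atrial cells, and in the embryo also ventricular cells, release. In rodents a sheath of atrial-type muscle runs from the heart along the pulmonary veins into the lung, so whole lung holds some cardiac muscle of its own, and the atria lie close to it in the chest.

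RefSeq promoter windows for the GRCr8 assembly, each 300 bases long, were found for 7 of the 8 genes. Those of Nppa and Myl7 are shown because these genes are set against each other in the array plot, and that of Myl4 as the other atrial light chain. Capitals mark TATAAA on either strand, and sequences run 5′ to 3′ on the strand of the gene. The windows lie at chr5:163711934-163712233 (plus strand) for Nppa, chr14:84996575-84996874 (minus strand) for Myl7 and chr10:89975900-89976199 (plus strand) for Myl4.
Nppa: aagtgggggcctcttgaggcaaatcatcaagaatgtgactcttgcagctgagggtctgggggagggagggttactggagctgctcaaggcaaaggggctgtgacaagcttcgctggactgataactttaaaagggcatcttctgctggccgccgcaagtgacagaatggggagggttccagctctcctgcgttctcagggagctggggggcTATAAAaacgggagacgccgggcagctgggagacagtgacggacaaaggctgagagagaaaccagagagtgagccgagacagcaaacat
Myl7: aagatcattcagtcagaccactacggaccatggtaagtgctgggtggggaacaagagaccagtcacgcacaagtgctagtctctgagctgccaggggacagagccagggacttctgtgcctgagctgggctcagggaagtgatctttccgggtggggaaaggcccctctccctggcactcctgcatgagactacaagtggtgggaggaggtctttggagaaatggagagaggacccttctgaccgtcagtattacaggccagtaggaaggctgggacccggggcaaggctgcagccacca
Myl4: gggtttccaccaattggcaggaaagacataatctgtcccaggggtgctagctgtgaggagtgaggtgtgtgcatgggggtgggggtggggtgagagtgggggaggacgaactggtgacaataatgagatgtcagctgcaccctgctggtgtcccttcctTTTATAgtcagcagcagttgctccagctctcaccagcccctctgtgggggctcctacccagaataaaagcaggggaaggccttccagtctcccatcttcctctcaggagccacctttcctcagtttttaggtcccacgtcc

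TATAAA was found on the gene's strand in the Nppa window and on the opposite strand in the Myl4 window, but not in the Myl7 window. It occurred in 2 of the 8 windows of the cardiac genes (Tnnt2 has 2 windows) and in 14.2% of 33469 windows of all genes. AGATAA was found in 2 of the 8 windows, against 11.6% of all windows, and CATTCC in 2, against 14.2%. CANNTG was found in 6, against 72.1%. The CArG box was found in 1, that of Actc1, against 1.64%, and the MEF2 box in none, against 3.29%. All motifs were searched on both strands, and no match overlapped another one in these windows. A match describes the letters only.

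A pair of arrays stood apart from their group. Lung E16 replicates 5 and 9 had higher values than each of the other 8 lung E16 arrays for all 7 measured cardiac genes, and the gap from the lower of the pair to the next array ran from 1.25 log2 units for Tnni3 to 4.76 for Nppa. Of all 14218 genes, 3.27% were higher in both arrays than in the other 8, and 40 genes, or 0.281%, were higher by at least 1 log2 unit; Nppa had the widest gap of all genes. These arrays were singled out after their values were seen, so the counts describe them and carry no test. Differences of the cardiac genes that rest on lung E16 are given with and without both arrays. The linear model (limma) shares 1 estimate of the spread over the 4 groups. With all arrays the pair therefore widens the SE of these genes in every limma comparison, also at E20 and in intestine. Since the pair was left out for high values of these same genes, its removal lowers the lung E16 mean of each by construction, and the p-values without it are conditional on that choice.

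**Figure D1:**
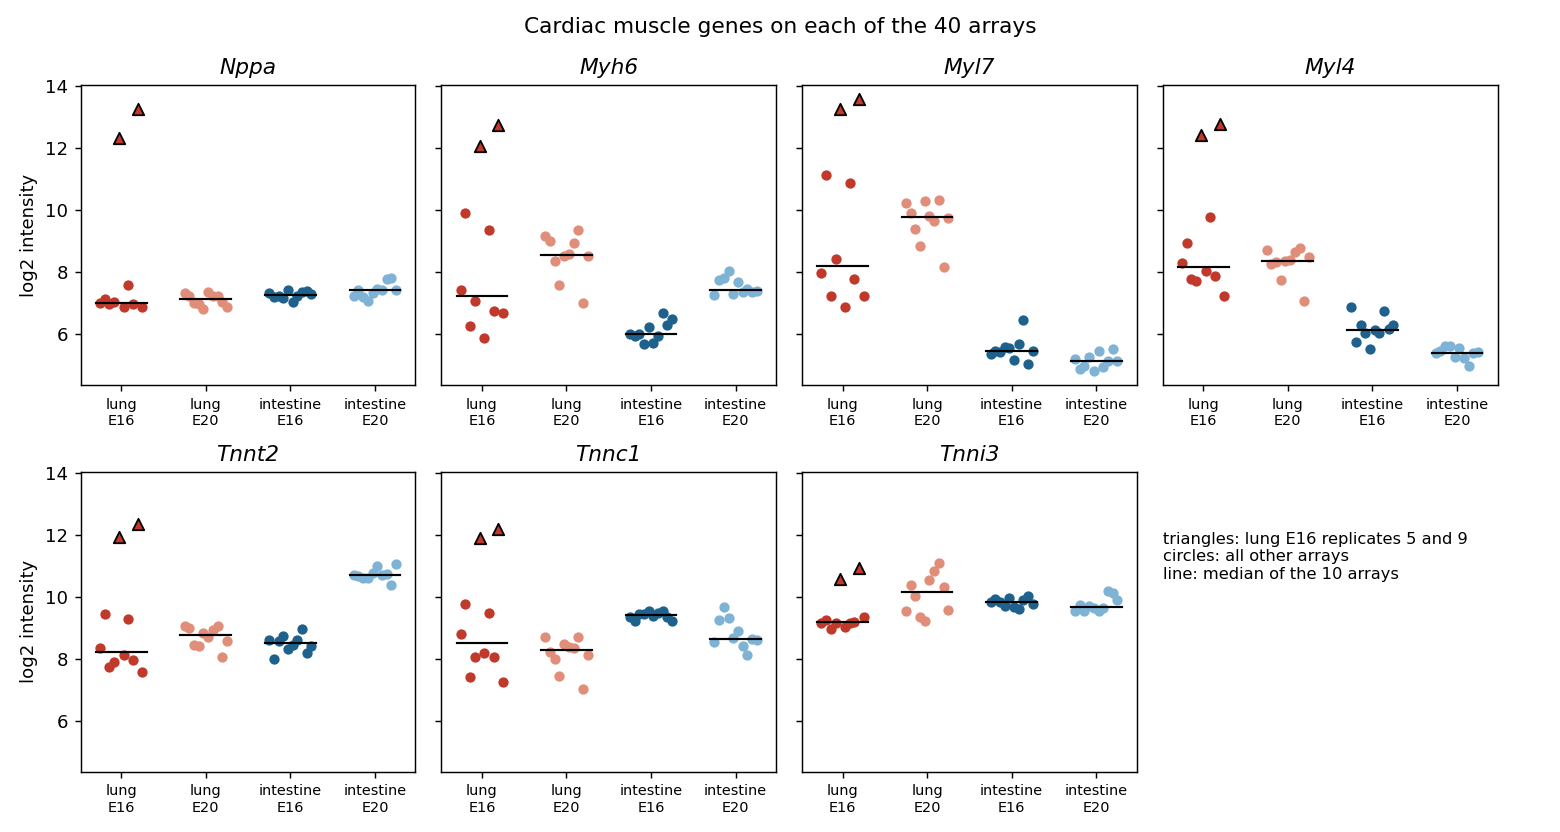
Log2 intensity (vertical axis) of the 7 measured cardiac genes on each of 40 arrays, by tissue and age (horizontal axis); each symbol is an array and lines are group medians. Lung E16 replicates 5 and 9 (triangles) lie above the other lung E16 arrays for all 7 genes, for Nppa by 4.76 log2 units.

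Nppa, the hormone gene, was dim in lung apart from these arrays. It stood at 12.34 in replicate 5 and 13.26 in replicate 9 of lung E16, against a lowest value of 6.88, a median of 6.99 and a highest of 7.58 in the other 8. Their mean lay 5.81 log2 units above the median of the other 8. No detection calls were used and the other arrays may lie at background, so this difference is not an exact fold. In lung E20 Nppa had a lowest value of 6.82, a median of 7.13 and a highest of 7.37, so no E20 array came near the high pair. The intestinal ranges were 7.06 to 7.43 at E16 and 7.07 to 7.81 at E20, below the median of all log2 values and overlapping both lung groups. Apart from replicates 5 and 9, no lung array exceeded all 20 intestinal arrays. The age difference in lung was -1.10 log2 units (SE 0.52, limma adjusted p = 0.0619) with all arrays and 0.05 (SE 0.09, adjusted p = 0.624) without replicates 5 and 9.

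Myl7, the atrial regulatory light chain, was higher in every lung array than in any intestinal array. Its lowest lung values lay below the median of all log2 values (7.89), and no detection calls were used. Lung E16 replicates 5 and 9 stood at 13.29 and 13.61, while the other 8 arrays had a lowest value of 6.90, a median of 7.87 and a highest of 11.13. In lung E20 the lowest value was 8.18, the median 9.80 and the highest 10.34. The highest intestinal value was 6.47, below the lowest lung value at either age. Among the other 8 lung E16 arrays, replicates 2 and 7 were also high, at 11.13 and 10.88, with the next at 8.43. In these 2 arrays Nppa was 7.14 and 7.58, within or just above the range of the intestinal arrays at E16. All 10 lung E20 arrays lay above the median of the 8 E16 arrays and none above their highest value.

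Myh6, the alpha myosin heavy chain, had a similar pattern over the arrays. Replicates 5 and 9 of lung E16 stood at 12.09 and 12.75, replicates 2 and 7 at 9.90 and 9.38, and the remaining 6 between 5.88 and 7.42. In lung E20 its lowest value was 7.01, its median 8.57 and its highest 9.37, again all above the median (6.91) of the 8 other E16 arrays. Intestinal values ran from 5.68 to 6.69 at E16 and from 7.28 to 8.06 at E20. A second, dimmer Myh6 probe set was also highest in replicates 5 and 9, by at least 1.42 log2 units, but its mean in lung E20, 5.16 (SD 0.17, n = 10), was close to that of the other 8 lung E16 arrays, 5.13 (SD 0.39, n = 8), so the probe sets disagree on the ages. In intestine the second set had a mean of 5.42 at E16 and 5.37 at E20, with overlapping ranges.

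Myl4, the atrial essential light chain, stood at 12.44 and 12.77 in replicates 5 and 9 and between 7.23 and 9.79 in the other 8 lung E16 arrays, with a median of 7.96. In lung E20 it had a lowest value of 7.06, a median of 8.38 and a highest of 8.80, which lay within the range of those 8 arrays except in replicate 9, the lowest. Its highest intestinal value, 6.87, was below the lowest lung value of either age, as for Myl7.

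The 3 troponin genes differed from one another in how the tissues stood. Tnnt2, cardiac troponin T, stood at 11.95 and 12.38 in lung E16 replicates 5 and 9 and between 7.57 and 9.46 in the other 8, with a median of 8.06. Its lung E20 values ran from 8.08 to 9.07 with a median of 8.78. In intestine, however, it ran from 8.01 to 8.97 at E16 and from 10.40 to 11.07 at E20, the latter above every lung array outside the high pair. A second Tnnt2 probe set was dim, with group means between 5.80 and 6.28, and replicates 5 and 9 did not stand above the other arrays there.

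Tnnc1, cardiac and slow troponin C, stood at 11.91 and 12.20 in the high pair and between 7.27 and 9.79 in the other 8 lung E16 arrays, with a median of 8.14. In lung E20 its lowest value was 7.05, its median 8.30 and its highest 8.70. Intestinal values reached 9.57 at E16 and 9.67 at E20, so outside the high pair only 1 lung array, replicate 2 of E16, exceeded all intestinal arrays.

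Tnni3, cardiac troponin I, had the smallest step of the 7 between the high pair and the rest. The pair stood 1.60 log2 units, or 3.03-fold, above the median of the other 8 lung E16 arrays (10.60 and 10.94 against 8.96 to 9.35). In lung E20 it ran from 9.24 to 11.10 with a median of 10.18, and 8 of the 10 arrays exceeded each of the 8 E16 arrays. One E20 array, replicate 8, exceeded both arrays of the high pair. Intestine was above the median of all log2 values throughout, between 9.54 and 10.18 over both ages.

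For Actc1, the main actin of fetal heart, only shared probe sets were measured. Among the lung E16 arrays, all 5 sets that name both Actc1 and Acta2 were highest in replicates 5 and 9, by 0.29 to 2.56 log2 units over the next lung E16 array. A set that names Acta2 alone stood at 11.81 and 11.57 there, against 10.99 to 11.74 in the other 8 arrays, so the pair did not stand apart on it. The 2 sets that name both Myh6 and Myh7 were also highest in the pair among the lung E16 arrays, by 0.67 and 2.33.

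The spread between lung arrays was wide for these genes relative to the array as a whole. Over 14218 genes the median SD was 0.143 in lung E16 and 0.180 in lung E20. Myl7 had the third widest SD of all genes in lung E16 (2.56), Myh6 the fourth (2.47), Nppa the fifth (2.44), Myl4 ranked 8 (1.99), Tnnt2 ranked 10 (1.74), Tnnc1 ranked 11 (1.74) and Tnni3 ranked 86 (0.69). Only the sex-linked transcripts Xist and Eif2s3y ranked above Myl7.

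Without replicates 5 and 9 the ranks separated the genes. Myl7 remained at rank 3 (SD 1.65) and Myh6 stood at 5 (1.46), with Tnnc1 at 19 (0.91), Myl4 at 31 (0.81) and Tnnt2 at 42 (0.70). Nppa moved to rank 2719 (0.23) and Tnni3 to rank 8988 (0.12), among genes of ordinary spread. In lung E20 the order was Myh6 at rank 53 (0.72), Myl7 at 65 (0.69), Tnni3 at 81 (0.65), Tnnc1 at 160 (0.53), Myl4 at 170 (0.52), Tnnt2 at 1124 (0.33) and Nppa at 6291 (0.19).

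The difference in spread between the ages was tested per gene with a permutation test (100000 resamples, two-sided) of the mean absolute deviation from the group median. With all arrays the deviation of Myl7 was 2.02 at E16 and 0.48 at E20 (p = 0.0178, 0.05005 after Benjamini-Hochberg adjustment over the 7 tests). None of the 7 adjusted values was below 0.05, though 4 unadjusted values were (Myl7, Myh6, Tnnt2 and Tnnc1). For Tnni3 the deviation was 0.39 at E16 and 0.55 at E20 (permutation p = 0.491). Without replicates 5 and 9 its E16 deviation was 0.08, but these were the 2 highest E16 values of Tnni3 itself, so no test is read from that difference.

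Within lung E20, 5 of the genes moved together from array to array. This was not particular to them. Among other genes, Birc5 (r = 0.93) and Pole (0.92) followed the mean standardised deviation of the 7 cardiac genes most closely over these arrays. The 5 genes, themselves part of that mean, had r from 0.88 to 0.98. How many pairs of all genes reach such r was not counted. All 10 pairs among Myh6, Myl7, Myl4, Tnnt2 and Tnnc1 had a Pearson r of at least 0.856 over the 10 arrays and passed Benjamini-Hochberg adjustment over the 21 pairs of an age (permutation test). The tightest pair was Myl7 and Tnnc1, with r = 0.98 and rho = 0.93 (adjusted permutation p = 0.000315 and 0.00378); r was 0.87 without the 2 arrays farthest from the median of Tnnc1. Replicate 9 was the lowest E20 array for all 5 and replicate 8 the highest for all 5, and 9 pairs passed without replicate 9. Over the 10 pairs the median r fell from 0.94 to 0.73 when the 2 farthest arrays were left out, and that of Myl7 and Myl4 from 0.91 to 0.43. By Spearman's rho 9 of the 10 passed, all but Myl7 and Myl4 (rho = 0.67, adjusted permutation p = 0.0819). None of the 11 pairs with Nppa or Tnni3 passed, and their r ran from 0.04 to 0.62. Without the 2 arrays farthest from the median of Nppa, however, its r with the 5 genes ran from 0.64 to 0.78. The separation of Nppa from the 5 genes thus rests on few arrays. For Tnni3 with the 5 genes, r without the 2 farthest arrays ran from 0.002 to 0.52. Tnni3 and Myl7 had r = 0.04 and rho = 0.10 (adjusted permutation p = 0.909 and 0.785).

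**Figure D2:**
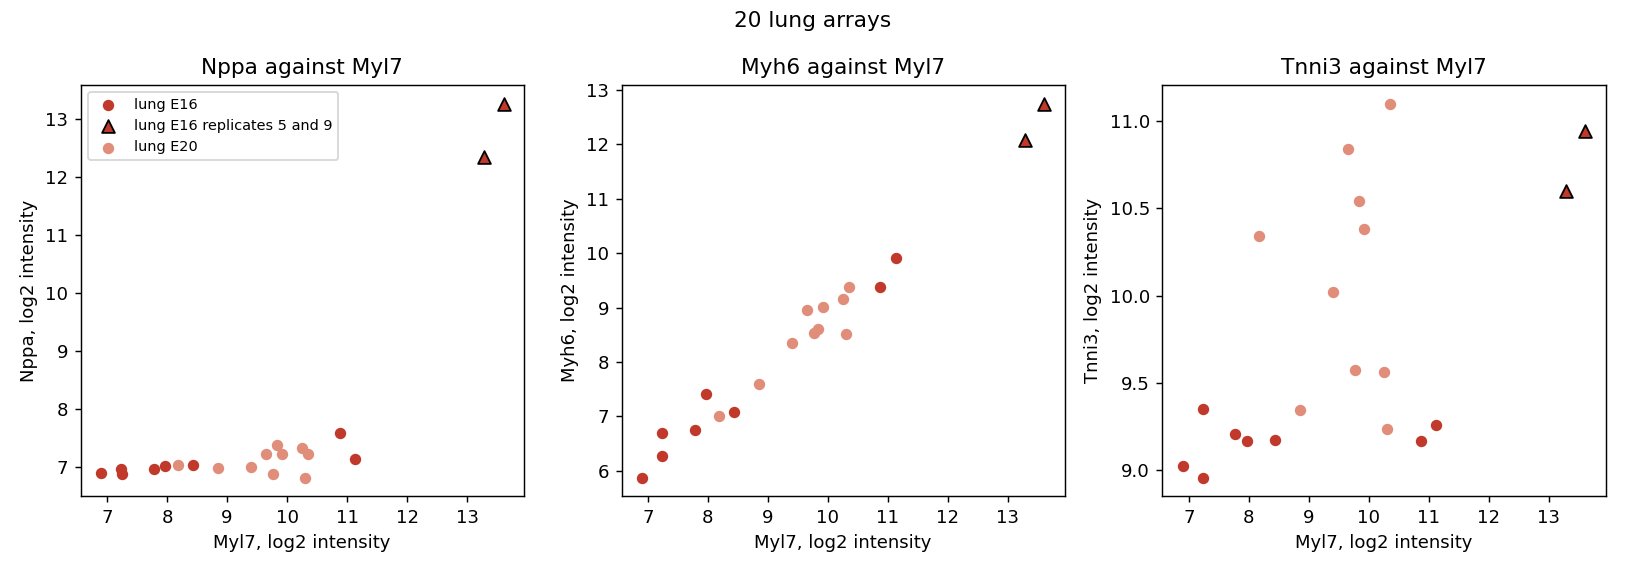
Log2 intensity of Nppa, Myh6 and Tnni3 (vertical axes) against that of Myl7 (horizontal axes) over 20 lung arrays; each symbol is an array, triangles are lung E16 replicates 5 and 9. Myh6 climbs along with Myl7 over the whole range, whereas Nppa stays at or below 7.58 until Myl7 reaches 13.29. Tnni3 lies higher in 8 of the 10 E20 arrays than in each of the 8 E16 arrays outside the pair. Few E16 arrays share a Myl7 level with the E20 arrays.

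In lung E16 the high pair forms a cluster of its own, so correlations were taken over the other 8 arrays. The same 10 pairs passed there with r between 0.82 and 0.98 (exact permutation test, adjusted over 21 pairs), and 15 pairs passed in all. By Spearman's rho only 5 of the 21 passed. Myh6 and Myl7 had r = 0.98 and rho = 0.98 (adjusted exact permutation p = 0.00339 and 0.00417), and r = 0.85 without the 2 arrays farthest from the median of Myh6. Most of the other pairs rest on few arrays: over the 10 pairs the median r fell from 0.91 to 0.44 when the 2 arrays farthest from the median of the first gene were left out. Tnnt2 with Tnnc1 (0.97), Tnnt2 with Myl4 (0.95) and Tnnc1 with Myl4 (0.88) kept a high r. These pairs also passed by rho. Nppa and Myl7 had r = 0.82 and rho = 0.86 (adjusted exact permutation p = 0.0169 and 0.045).

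By age, no cardiac gene was called in lung with all arrays, where a call needs a limma adjusted p under 0.05 over all genes and a difference of at least 1 log2 unit. Of all genes tested, 7.15% were called higher and 4.63% lower at E20. Tnnc1 was 0.98 log2 units lower at E20 (SE 0.40, adjusted p = 0.0299) and Tnni3 0.61 higher (SE 0.21, adjusted p = 0.0101), both short of the fold minimum. Nppa and Tnnc1 came out as called lower when arrays were quantile normalized, centred on their medians or given array weights. The median difference over the 7 genes was -0.36, against -0.006 over all genes.

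Without replicates 5 and 9, which raises each E20 minus E16 difference, 2 of the 7 genes were called higher and none lower, where 7.15% of all genes were called higher and 4.74% lower. Myl7 was 1.21 log2 units higher at E20 (SE 0.39, limma adjusted p = 0.00613) and Myh6 1.09 higher (SE 0.35, adjusted p = 0.00669). The ranges of the ages overlapped for both, since replicates 2 and 7 of E16 lay above every E20 array. Tnni3 was 0.93 higher (SE 0.17, adjusted p = 4.98e-06) without reaching the fold minimum. For Myl4 the difference was 0.08 (SE 0.23, adjusted p = 0.787), for Tnnt2 0.41 (SE 0.18, adjusted p = 0.0438) and for Tnnc1 -0.24 (SE 0.25, adjusted p = 0.4). The median over the 7 genes was then 0.41, against -0.002 over all genes.

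In intestine, which has no cardiac muscle of its own, 2 of the 7 genes rose with age, where 8.79% of all genes were called higher. Tnnt2 was 2.24 log2 units higher at E20 (SE 0.38, limma adjusted p = 1.82e-06) and Myh6 1.44 higher (SE 0.55, adjusted p = 0.0188), with no overlap between ages for either. How many of all genes lacked such overlap was not counted. The Myh6 call did not hold with the mean of its probe sets (0.70) or in the test against a 2-fold change. The SE in that test takes in the lung E16 arrays (SD 2.47), while the Myh6 SD in intestine was 0.33 at E16 and 0.27 at E20. None of the 7 fell, where 6.26% of all genes did.

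The age changes of the tissues differed for Tnnt2. Its lung change was 2.60 log2 units below its intestinal change (SE 0.54, limma adjusted p = 5.43e-05), and 1.83 below it without replicates 5 and 9 (SE 0.25, adjusted p = 3.01e-08). It was the only one of the 7 called lower with all arrays, where 8.48% of all genes were, and none was called higher, where 9.13% were. Without the high pair, with the same condition on the p-values, Myl7 was called higher by 1.59 (SE 0.53, adjusted p = 0.00823) and Tnni3 by 1.01 (SE 0.23, adjusted p = 0.000182), against 9.2% of all genes, and Tnnt2 remained the only one called lower, against 8.5%.

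Lung and intestine were furthest apart in the atrial light chains. At E16, 3 of the 7 genes were higher in lung, against 2.13% of all genes: Myl7 by 3.92 log2 units (SE 0.57, limma adjusted p = 1.93e-07), Myl4 by 2.90 (SE 0.45, adjusted p = 5.66e-07) and Myh6 by 2.32 (SE 0.55, adjusted p = 0.000414). None was lower, against 3%. The same 3 were called without replicates 5 and 9, by 2.92, 2.02 and 1.32 (2.12% of all genes). For Myl7 and Myl4 each of the 8 remaining arrays exceeded all 20 intestinal arrays. How many of all genes were without overlap at E16 was not counted. The second Myh6 probe set stood the other way without the pair, with a mean of 5.13 in lung and 5.42 in intestine, and the Myh6 call with all arrays was lost in the test against a 2-fold change. Without the pair Tnnc1, whose 2 highest lung E16 values were thereby removed, was called lower in lung, with a lung-minus-intestine difference of -1.01 (SE 0.25, adjusted p = 0.000605), against 3.09% of all genes.

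At E20, Myl7 was higher in lung by 4.51 log2 units (SE 0.57, limma adjusted p = 3.39e-09) and Myl4 by 2.89 (SE 0.45, adjusted p = 2.77e-07), against 7.91% of all genes called higher. Tnnt2 was lower, with a difference of -2.02 (SE 0.38, adjusted p = 1.07e-05), against 8.21% called lower. For these 3 genes the tissues did not overlap. The share of all genes without overlap was not counted. Myh6 had a difference of 0.97 (SE 0.55, adjusted p = 0.113), and 8 of the 10 lung arrays exceeded all 20 intestinal arrays. Its SE takes in the lung E16 arrays (SD 2.47), while its SD was 0.72 in lung E20 and 0.27 in intestine E20. The missing call is therefore not read as a lack of difference.

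**Figure D3:**
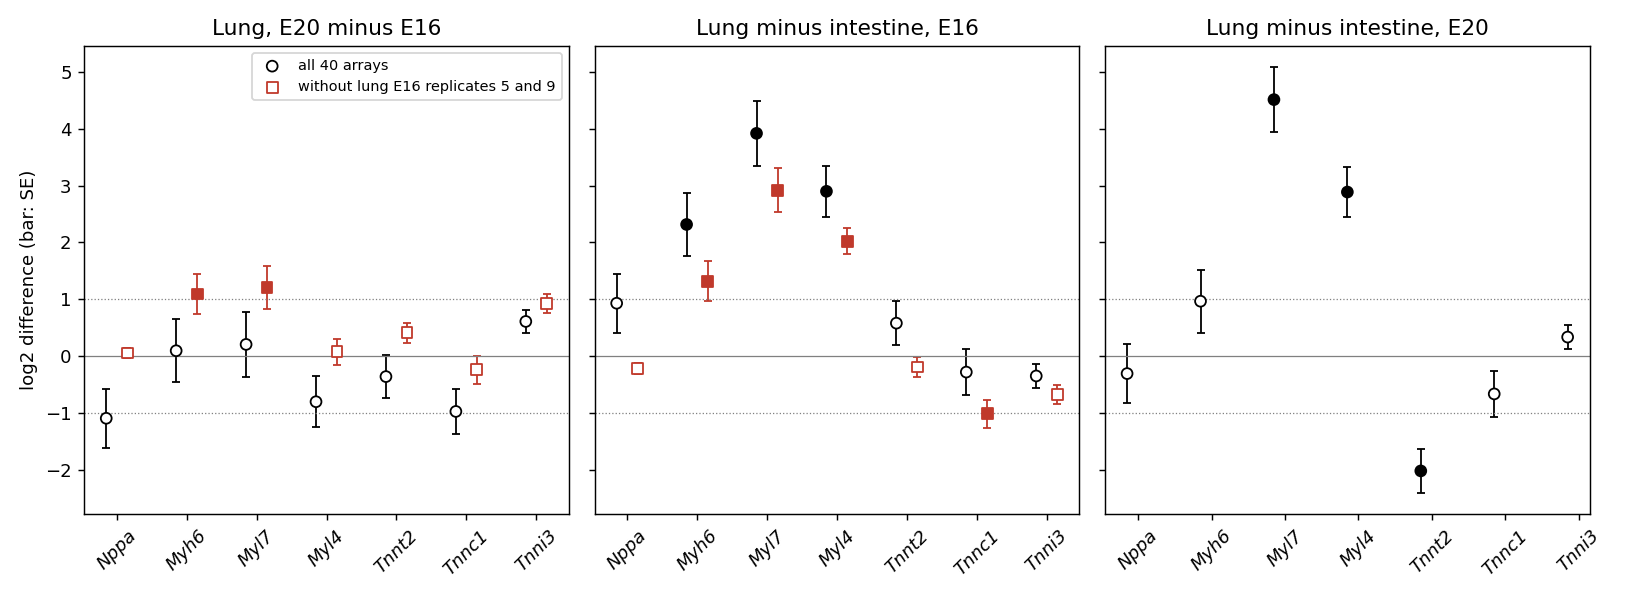
Log2 differences of the 7 measured cardiac genes (vertical axis, bars are SE) between ages of lung and between lung and intestine at each age; filled symbols were called, dotted lines mark 1 log2 unit. Circles use all 40 arrays and squares leave out lung E16 replicates 5 and 9, which changes the lung age difference of Nppa from -1.10 to 0.05 and that of Myl7 from 0.21 to 1.21.

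Other lists of cardiac genes were then read in the high pair. Of 18 measured sarcomere and Z-disc genes, 14 were higher in both replicates 5 and 9 than in the other 8 lung E16 arrays, where 3.27% of all genes were. Csrp3, a Z-disc protein of striated muscle, stood at 10.93 and 11.47, against at most 7.84 in the other 8. Of 15 calcium-handling and channel genes, 10 were higher, among them Pln, the inhibitor of the calcium pump, at 9.91 and 10.70 against at most 7.62. Sln, its atrial counterpart, stood at 9.31 and 9.97 against at most 7.79.

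Among 6 other genes of the natriuretic peptide system only Nppb, the second cardiac natriuretic peptide, was higher, at 9.46 and 10.36 against at most 6.58. The receptors Npr1 and Npr3 were not: Npr1 stood at 8.30 and 8.31, against 8.08 to 8.54. Of 15 cardiac transcription factors 5 were higher, including the cardiac regulator Nkx2-5, at 7.65 and 7.59 against at most 5.86. Tbx5, which lung mesenchyme also expresses, was at 11.40 and 11.38, within the range of the other 8 (11.20 to 11.50). The ventricular light chain Myl2 was within their range too, at 7.59 and 7.60 against 7.29 to 7.74, and Myh7 was not higher in both. Of 6 atrial genes 2 were higher in the pair: Sln and Gja5 (10.21 and 10.48 against at most 9.60). Of 7 ventricular genes 3 were: Nppb, Myl3 (8.01 and 8.01 against at most 7.80) and Hey2 (7.72 and 8.09 against at most 7.05). The atrial list leaves out the members Nppa, Myl7 and Myl4. Every measured gene of both lists also stands in another list. The atrial and ventricular counts are therefore not set against each other.

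Markers of other tissues were read in the same way. Of 23 skeletal muscle genes 4 were higher in the pair, of which Acta1, the skeletal actin that fetal heart also expresses, stood at 11.34 and 11.53 against at most 9.61. Of 9 smooth muscle genes 1 was higher (Cnn1), and of the mesothelium (6 genes), liver (12), thymus (5), oesophagus (6), cartilage (6) and erythroid (7) markers none was. How much heart or pulmonary vein muscle each lung sample held was not tested.

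**Figure D4:**
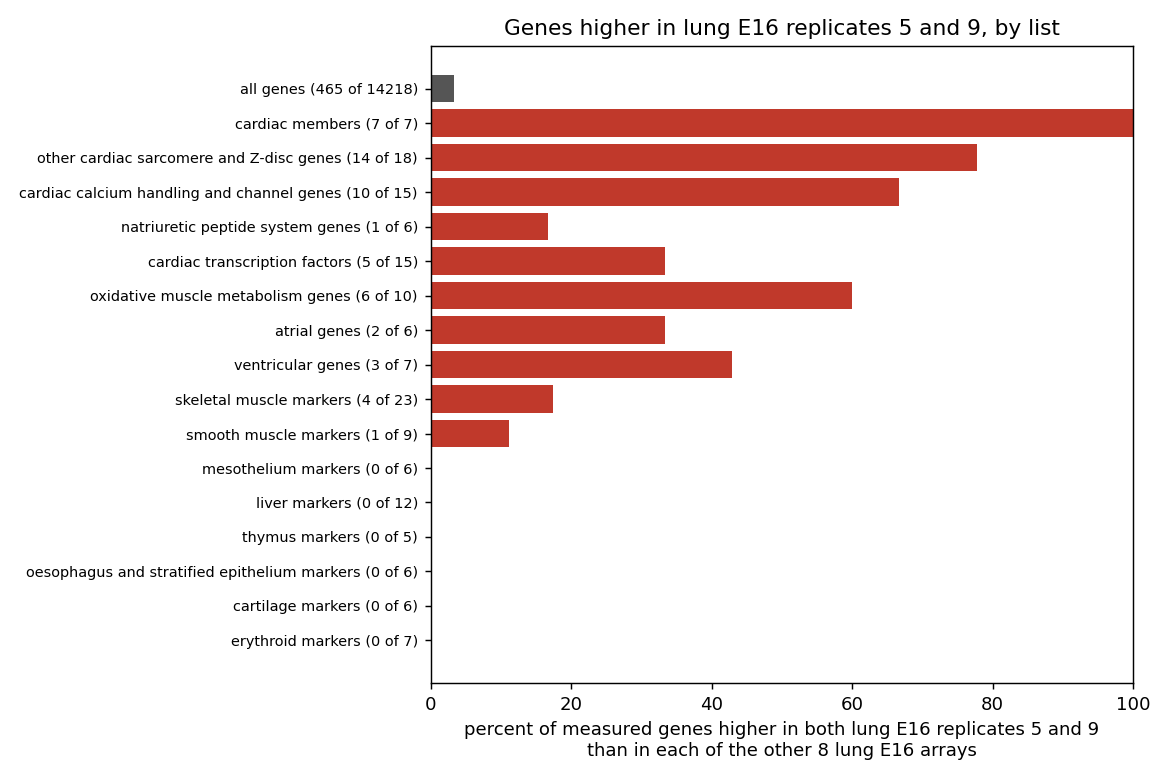
Percent of the measured genes of each list (horizontal axis) that were higher in both lung E16 replicates 5 and 9 than in each of the other 8 lung E16 arrays; counts stand beside the list names, and the grey bar is all genes (3.27%). The cardiac lists lie above the grey bar, as do the skeletal muscle list (4 of 23, 17.4%) and the smooth muscle list (1 of 9, 11.1%), and 6 lists of other tissues are at 0.

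Between lung ages few genes of the other cardiac lists were called, against a background over all genes of 7.15% higher at E20 and 4.63% lower. Of the 18 sarcomere genes none was, with all arrays or without the high pair, and their median difference was -0.07 and 0.17, against -0.006 and -0.002 over all genes. Of the 15 calcium-handling and channel genes 1 rose: Gja5, the connexin of atrial muscle and of arterial endothelium, was 2.70 log2 units higher at E20 (SE 0.12, limma adjusted p = 1.04e-22), and 2.91 higher without the high pair. Its lung E20 values (11.86 to 12.40) lay above both high E16 arrays (10.21 and 10.48). None of the 15 transcription factors was called. Of the 6 natriuretic system genes Mme, the peptidase that degrades natriuretic peptides, rose by 1.69 (SE 0.15, adjusted p = 8.05e-13), and by 1.70 without the pair. Of 23 skeletal muscle genes 6 fell and none rose, led by Myl11, the fast light chain (-2.21, SE 0.39, adjusted p = 3.17e-06), and Myl1 (-1.90, SE 0.35, adjusted p = 8.47e-06). Without the pair 6 were again lower, with Myl1 at -1.79 and Myl11 at -2.18.

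Between tissues, 3 of the 18 sarcomere genes were called higher in lung at E16 (2 without the high pair) and 3 at E20. None was called lower. Of all genes, 2.13% were called higher at E16 and 7.91% at E20. The median difference over the 18 was 0.01 at E16 and 0.03 at E20, against -0.11 and -0.09 over all genes. Smpx, a small protein of striated muscle, was 2.93 log2 units higher in lung at E16 (SE 0.33, limma adjusted p = 4.95e-10) and 1.27 higher at E20 (SE 0.33, adjusted p = 0.000683). Without the high pair its E16 difference was 2.28 (SE 0.16). Myoz2, a Z-disc protein, was higher by 2.04 (SE 0.48, adjusted p = 0.000378) and 1.61 (SE 0.48, adjusted p = 0.00321), and at E16 by 1.18 without the pair (SE 0.31, adjusted p = 0.00141). Of the 15 calcium-handling and channel genes, none was called lower in lung at E16 and 1 at E20, where 8.21% of all genes were. This was Pln (-2.34, SE 0.37, limma adjusted p = 4.94e-07), on the same side as Tnnt2. Gja5 was the only one of the 15 called higher in lung, by 1.17 at E16 and 4.52 at E20. Without the pair none of the 15 was called higher at E16 and 1 was called lower.

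Of the 15 transcription factors 2 were higher and 3 lower in lung at E16, where 2.13% of all genes were higher and 3% lower. Tbx5 was higher by 7.15 (limma adjusted p = 3.63e-29) and Gata4, another cardiac regulator, by 1.16, while Hand2 (-3.85), Hey2 (-2.90) and Myocd (-1.35) were lower, and the same 5 were called without the pair. At E20, where 7.91% of all genes were higher and 8.21% lower, Tbx5 was higher by 6.36 (limma adjusted p = 1.68e-28) and Mef2a by 1.00, while Gata4 (-2.94) and Hand2 (-2.31) were lower. Of 9 smooth muscle markers 6 were lower in lung at each age, where 3% of all genes were lower at E16 and 8.21% at E20. Among them was Cnn1 (-3.29 at E16, SE 0.11, limma adjusted p = 2.11e-26). Without the pair 7 of the 9 were lower at E16, with Cnn1 at -3.39.

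Myl7 was also set against the mean level of 15 marker lists over the arrays of each age. In lung E20 none passed: the nearest was the cartilage list, with r = 0.75 and rho = 0.83 (adjusted permutation p = 0.0506 and 0.0699) and r = 0.66 without the 2 arrays farthest from the median of Myl7. The adjustment covered the 15 lists at both ages, with all 10 lung E16 arrays, so it depends on the high pair. For r of the cartilage list the unadjusted permutation p was 0.0135. The skeletal muscle list had r = 0.26 and rho = 0.16 (adjusted permutation p = 0.731 and 0.82). The liver list, high in lung E20 replicates 1 and 8 (8.65 and 8.69, against at most 6.72 in the other 8), had r = 0.51 and rho = 0.58 (adjusted permutation p = 0.252 and 0.313). Over all 10 lung E16 arrays the sarcomere, calcium-handling, natriuretic, transcription factor, oxidative metabolism, atrial and ventricular lists passed for r, and no other list did. All measured atrial and ventricular genes also stand in the other lists, so the lists that passed are not independent. The r of the lists that passed ran from 0.82 to 0.94 (adjusted permutation p from 0.0015 to 0.0333), and none passed by rho. Without the high pair their r ran from 0.18 to 0.90. Over those 8 lung E16 arrays none of the 15 passed, and the sarcomere list came nearest, with r = 0.90 and rho = 0.71 (adjusted exact permutation p = 0.072 and 0.811).

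The genes most like the cardiac genes in lung were ranked by Pearson r over the 20 lung arrays. The comparison was with the mean standardised deviation of the 7 genes from their group means. The ranking is a description in which the high pair weighs heavily. Only genes whose mean passed 7.89 in lung E16 or in lung E20 took part. Mybpc3 took part through its lung E16 mean of 7.91, which the high pair raises, as its lung E20 mean was 7.78. Csrp3, with means of 7.46 in lung E16 and 6.56 in lung E20, was not ranked. The first 10 were Sh3bgr (r = 0.98), Tnni1 (0.98), Spink8 (0.95), Smpx (0.94), Mybpc3 (0.93), Rbm24 (0.92), Fabp3 (0.92), Sln (0.91), Hacd1 (0.89) and Ttn (0.88). Tnni1 is the slow troponin I, the main form of fetal heart, Mybpc3 the cardiac myosin-binding protein C and Ttn the giant spring protein titin. Over the 18 arrays without replicates 5 and 9, Tnni1 (0.91) and Sh3bgr (0.90) came first again, and the next, Zcchc12, had r = 0.79. Spink8 was the only other gene in both sets of 10. Over the 10 lung E20 arrays alone the ranking, again a description, was another one, led by Birc5 (r = 0.93), Pole (0.92) and Dmap1 (0.92), and none of its first 10 was in a cardiac list.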

How the data were processed

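RNA of whole lung and whole intestine of rat embryos was measured on 40 one-colour Affymetrix arrays, 10 in each of 4 groups taken from the sample titles. The deposited values are RMA-summarised intensities on a linear scale, 1 for each of 31099 probe sets; the submitters' processing notes name RMA but no version, and do not say whether lung and intestine arrays were normalized as 1 batch. Arrays have no depth, so their number limits the precision.

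Log2 was taken here. Per the platform annotation, 20832 probe sets had 1 symbol, 436 several and 9831 none; symbols were updated through Entrez identifiers (20764 matched to a GRCr8 gene table), and for each of 14218 genes the probe set with the highest overall mean was used. limma 3.58.1 in R 4.3.3 fitted a mean per group to all 40 arrays, with 5 contrasts and two-sided tests; a call needed a Benjamini-Hochberg adjusted p under 0.05 over all genes and a log2 difference of at least 1. Permutation tests used 100000 resamples for 10 arrays and were exact for 8. The fit was tested on simulated data.

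The members, the 15 other lists and the tests were chosen with earlier results of these data known, and leaving out lung E16 replicates 5 and 9 was chosen after seeing the data. Named were all cardiac genes, up to 4 called genes of a list with the largest change and defining markers used as checks. The 10 genes most like the members, among those bright enough to be ranked, were named too. Csrp3, Sln and the other genes given for replicates 5 and 9 were picked after their values were seen. Replicate numbers were not taken to pair samples: of 10 same-numbered lung and intestine pairs, 8 correlated above 0.1 in their deviations at E16 and 2 at E20. Of the same-numbered pairs with clear sex transcripts, 8 of 9 were alike in sex at E16 and 4 of 10 at E20. Whether a number marks the same animals at E16 is thus not settled. Alternatives covered normalization, probe set choice, offset, filter, prior, weights, threshold, replicate block and leaving out each lung array.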

Additional observations from a re-analysis of the deposited data

Results flagged for a closer look

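Of 28 sets of 10 arrays (7 cardiac genes in 4 groups), 1 had a value far from the others by Dixon's test, where chance gives about 1 in 20. Myl7 in intestine E16 was highest in replicate 8, at 6.47, and its gap to the next array took up 0.558 of the range of the group. The test looks at a single extreme array, so it does not pick out a pair such as lung E16 replicates 5 and 9.

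The age change of Tnnt2 differed between the tissues, with a lung change minus intestine change of -2.60 log2 units (SE 0.54, limma adjusted p = 5.43e-05). Tnnt2 was higher at E20 than at E16 in intestine, with no overlap between ages, and not called between ages of lung.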

How the results depend on the processing

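Leaving out lung E16 replicates 5 and 9 together changed most: in lung by age it gave 2 genes called higher, in the tissue difference of age changes 2 higher, at E16 1 called lower in lung, in spread 1 gene past the threshold (Tnni3, whose 2 highest E16 values are those left out) and in the Myl7 relations 0. It also turned the sign of 7 uncalled differences: for lung age Nppa (0.054), Tnnt2 (0.41) and Myl4 (0.076), for the difference between tissues Tnnc1 (0.35) and Myl4 (0.87), and at E16 Nppa (-0.22) and Tnnt2 (-0.19). The number called lower in lung by age was 2 with quantile normalization, 2 with centred arrays and 2 with array weights, and without a fold minimum 1 was higher and 1 lower; it ranged from 0 to 3 when 1 lung array was left out, so it rests on single arrays. Without a fold minimum the tissue difference had 1 higher. In intestine 1 gene instead of 2 was higher with the mean of all probe sets and 1 in the test against a 2-fold change; the lost gene was Myh6, which that test also lost between tissues at E16. Centring gave 4 genes past the threshold for spread, and the mean of all probe sets gave 6 correlated pairs at E20.

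Myh6 by lung age was -0.025 with quantile normalization, -0.17 with the mean of all probe sets, -0.029 with an offset of 32 and -0.22 with array weights, and Myl7 -0.16 with array weights. With 1 array left out, lung age differences turned sign for Myh6 (range -0.19 to 0.57), Tnnt2 (range -0.53 to 0.0052) and Myl7 (range -0.078 to 0.67), as did the difference between tissues for Myl4 (range -0.22 to 0.40). The calls of Myl7 and Myl4 at both ages, of Tnnt2 at E20 and of the Tnnt2 difference kept their direction under each alternative run. With the replicate number as a block, 0 genes were called in lung by age, 2 in intestine, 1 for the change between tissues, and 3 for each age between tissues, as without it. Of the 10 pairs of lung and intestine with the same number, 5 correlated best with their own number at E16 and 1 at E20. The cause of these changes was not tested.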
